A study of Mus musculus and synthetic construct with 30 samples.

Results

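A total of 9 genes that mark the excitatory neuron lineage of the forebrain were followed by symbol through the RNA-seq libraries of a *Peril* knockout mouse, and all 9 were present once among the 26759 genes of each file. The genes are *Neurog2*, *Emx1*, *Emx2*, *Neurod1*, *Neurod2*, *Neurod6*, *Tbr1*, *Slc17a6* and *Slc17a7*. All 9 passed the filter on low counts, most of them only through the libraries made from ganglionic eminence with olfactory bulb (GE/OB). There each stood above 20 TPM in every library. TPM, the share of a library's transcripts that a gene holds once its length is accounted for, can be compared between genes.

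*Peril* is a long noncoding RNA locus on chromosome 3, and the study asked whether its DNA regulates other genes. In the knockout (KO) allele, Periltm1.1Vlcg, a *LacZ* reporter replaces the gene body, and the mice were of mixed C57BL/6J and 129S6 background with the Neo cassette removed. GE/OB was dissected from E14.5 embryos, that is from 4 embryos of litter 46, and kidney was taken at the same age from 6 embryos of litter 43. In GE/OB both wild-type (WT) embryos, numbers 1 and 3, were male and both KO embryos, numbers 2 and 7, were female, so the effects of sex and genotype cannot be told apart there. In kidney the WT embryos 1, 3 and 8 were male, female and male, and the KO embryos 7, 9 and 10 were male, female and female. Murine embryonic stem cells (mESC), all male, were collected as 3 wells of WT clone 4 and 3 wells of KO clone 6 after culture on feeder fibroblasts. Wells of 1 clone measure the spread between wells and not between clones, so clone and genotype also cannot be told apart.

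The cerebral cortex arises from the pallium, the dorsal part of the embryonic forebrain. There, dividing cells that express *Emx1*, *Emx2* and *Neurog2* give rise to neurons that switch on the NeuroD factors and *Tbr1* and later release glutamate. The ganglionic eminences lie ventral to it and produce neurons that release GABA, under *Dlx* and *Gsx* factors, while the olfactory bulb holds projection neurons of pallial origin as well as GABAergic cells. The basic helix-loop-helix (bHLH) factors *Neurog2*, *Neurod1*, *Neurod2* and *Neurod6* bind E-boxes, short DNA sites of the form CANNTG.

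Counts summed to 17594150 to 32146978 per GE/OB library, and to 17544707 to 45924887 over all 16 libraries. GE/OB KO 2 was the deepest of the 4 GE/OB libraries. *LacZ* stood at 44.43 and 45.79 TPM in the GE/OB KO libraries against at most 0.1 TPM in WT, and at 69.6 to 73.67 TPM in KO mESC against at most 0.07 TPM in WT, so these labels matched the allele. In kidney *LacZ* was at most 0.47 TPM in any library and *Peril* had 0 counts in all 6, so neither checks the kidney labels. *Peril* was listed at 0 in all GE/OB libraries and at 0.33 to 0.57 TPM in WT mESC against 0.16 to 0.24 TPM in KO mESC.

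The region in front of the start of transcription is shown for 3 of the 4 bHLH members, which are E-box binding factors themselves. Each line holds the 250 bases before the RefSeq start (GRCm38.p6, the build that mm10 names), on the strand of the gene, with these E-boxes in capitals.
Neurog2, chr3:127632886-127633135, plus strand: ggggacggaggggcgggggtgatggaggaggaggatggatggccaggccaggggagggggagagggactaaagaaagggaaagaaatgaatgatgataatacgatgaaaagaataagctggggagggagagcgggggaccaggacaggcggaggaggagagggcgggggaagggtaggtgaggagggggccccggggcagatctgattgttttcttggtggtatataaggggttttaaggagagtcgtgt
Neurod2, chr11:98329646-98329895, minus strand: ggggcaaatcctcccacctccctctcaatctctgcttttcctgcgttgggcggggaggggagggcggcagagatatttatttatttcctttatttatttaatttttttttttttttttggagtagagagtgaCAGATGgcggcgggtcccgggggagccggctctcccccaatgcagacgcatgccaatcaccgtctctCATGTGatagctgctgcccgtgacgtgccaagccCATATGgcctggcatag
Neurod6, chr6:55681264-55681513, minus strand: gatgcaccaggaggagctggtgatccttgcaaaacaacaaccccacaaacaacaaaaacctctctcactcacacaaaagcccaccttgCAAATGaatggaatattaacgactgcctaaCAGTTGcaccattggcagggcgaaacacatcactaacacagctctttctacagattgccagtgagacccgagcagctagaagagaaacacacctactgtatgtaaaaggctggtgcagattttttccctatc
CANNTG reads the same on both strands, so 1 search covers both. The *Neurog2* window held 0 matches. The *Neurod2* window held 3 matches, with CAGATG at 118 bases before the start, CATGTG at 51 bases and CATATG at 17 bases. The *Neurod6* window held 2 matches, with CAAATG at 162 bases before the start and CAGTTG at 132 bases. The *Neurod1* window, part of which GENCODE places inside the gene, is not printed and held 1 match, CATATG at 242 bases. Of all 32851 RefSeq windows of this length, 66.2% held at least 1 match. The form CAGATG, preferred by Neurogenin and NeuroD factors, was found on either strand in 14.4% of windows and the form CATATG in 3.46%, and both of these forms are among the counted matches. All 9 members were matched in the RefSeq promoter table, with 10 windows since *Slc17a6* has a pair, and 7 members held an E-box. These matches describe the letters only.

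RNA of the excitatory lineage genes was abundant in the GE/OB libraries, whose dissection included the olfactory bulb. The highest of the 9 was *Neurod6*, a bHLH factor of postmitotic cortical neurons (mm10, chromosome 6, 55677822 to 55681263, minus strand), with 339.57 and 316.47 TPM in GE/OB WT 1 and WT 3 and 241.84 and 294.93 TPM in KO 2 and KO 7. Its mean over the 4 libraries, WT and KO together, was 298 ± 41.8 TPM (SD, n = 4), rank 455 of the 26759 genes. Both KO libraries stood below both WT libraries.

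*Tbr1*, the T-box factor of early-born deep-layer neurons and of bulb projection neurons (chromosome 2, 61802930 to 61814114, plus strand), followed at 153.73 and 156.17 TPM in WT 1 and WT 3 and 165.09 and 169.97 TPM in KO 2 and KO 7. The KO values lay above the WT values, by a margin of a few percent. *Neurod2*, another bHLH factor of maturing excitatory neurons (chromosome 11, 98325415 to 98329648, minus strand), had 119.84 and 121.43 TPM in WT and 107.21 and 119.96 TPM in KO 2 and KO 7. KO 2 stood below the other 3 libraries, which lay close together.

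*Neurog2*, the proneural bHLH factor of dividing pallial progenitors (chromosome 3, 127633135 to 127635631, plus strand), was the member whose libraries differed most. It had 63.35 and 60.49 TPM in WT 1 and WT 3, 39.06 TPM in KO 2 and 89.47 TPM in KO 7. The WT pair lay together in the middle, and the KO pair held both the lowest and the highest value. *Emx1*, a homeobox factor of pallial progenitors and of excitatory neurons derived from them (chromosome 6, 85187438 to 85204462, plus strand), had the same order of KO 2, WT 3, WT 1 and KO 7, at 22.91, 26.96, 30.42 and 44.15 TPM.

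*Neurod1*, a bHLH factor expressed as neurons leave the cell cycle (chromosome 2, 79452521 to 79456751, minus strand), was at 38.14, 35.27, 37.52 and 38.48 TPM in WT 1, WT 3, KO 2 and KO 7. These values stayed close together. *Emx2*, the homeobox partner of *Emx1* (chromosome 19, 59458372 to 59465357, plus strand), had 31.26, 28.48, 31.32 and 40.58 TPM in the same order of libraries, with KO 7 above the other 3.

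The vesicular glutamate transporters load glutamate into synaptic vesicles and mark the excitatory phenotype itself. *Slc17a6*, which encodes VGLUT2 (chromosome 7, 51622006 to 51671119, plus strand), had 29.68 and 30.37 TPM in WT and 35.81 and 34.22 TPM in KO 2 and KO 7. *Slc17a7*, which encodes VGLUT1 (chromosome 7, 45163949 to 45176142, plus strand), had 23.12 and 24.18 TPM in WT and 21.59 and 23.68 TPM in KO. The KO values of *Slc17a6* lay above the WT values, and those of *Slc17a7* overlapped them.

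By mean TPM the order was *Neurod6*, *Tbr1*, *Neurod2*, *Neurog2* (63.1 ± 20.7), *Neurod1* (37.4 ± 1.44), *Emx2* (32.9 ± 5.28), *Slc17a6* (32.5 ± 2.97), *Emx1* (31.1 ± 9.22) and *Slc17a7* (23.1 ± 1.12; SD, n = 4 throughout). The ranges of *Neurod6*, *Tbr1* and *Neurod2* did not overlap with those of their neighbours. The lowest *Neurog2* value, 39.06 TPM, lay just above the highest *Neurod1* value, 38.48 TPM. From *Neurod1* down to *Slc17a7* the ranges of neighbouring genes overlapped, although *Emx1* was above *Slc17a7* in all 4 libraries.

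**Figure D1:**
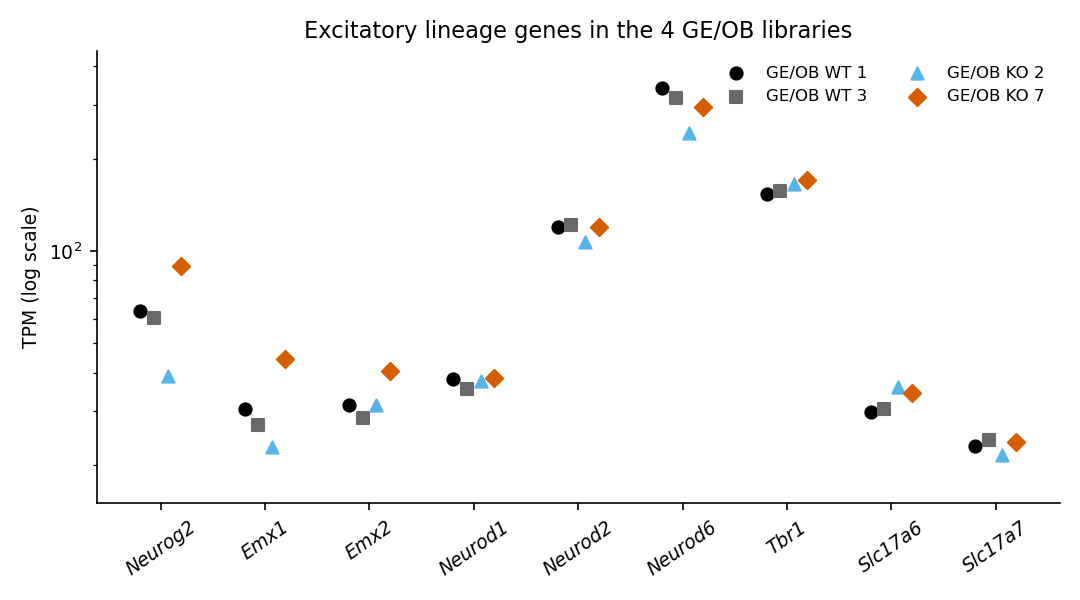
TPM of the 9 genes (log axis) in the 4 GE/OB libraries, 1 symbol per library, black and grey for WT and blue and orange for KO. *Neurog2* runs from 39.06 TPM in KO 2 to 89.47 TPM in KO 7 and *Emx1* from 22.91 to 44.15 TPM, whereas the 4 values of *Neurod1* lie between 35.27 and 38.48 TPM.

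Other genes of the pallial lineage were present beside the members. Of 19 further pallial excitatory genes, *Zbtb18* (243 ± 17.6 TPM; SD, n = 4), *Bcl11a* (162 ± 1.64 TPM), *Cux1* (121 ± 5.55 TPM) and *Lhx2* (102 ± 21.6 TPM) were highest, and each encodes a transcription factor of cortical progenitors or neurons that is also used elsewhere. Of 6 genes of olfactory bulb projection neurons, *Reln*, the secreted layering signal that Cajal-Retzius cells also make, had 83.6 ± 12.4 TPM and *Eomes*, the T-box factor of intermediate progenitors, 66.4 ± 16.3 TPM. *Tbx21*, the T-box factor that defines mature mitral and tufted cells of the bulb, was near 0 at 0.17 to 0.33 TPM. *Cdhr1*, a cadherin of mitral and tufted cells on the same list, was present at 1.46, 3.9, 6.87 and 2.77 TPM in WT 1, WT 3, KO 2 and KO 7. Its libraries differed 4.14-fold on the scaled counts, with KO 2 highest and WT 1 lowest. *Omp*, which defines mature olfactory sensory neurons, was at 0.17 to 0.6 TPM.

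Ventral genes were abundant in the same libraries. Among 18 ganglionic eminence genes, *Dlx1*, a homeobox factor of GABAergic precursors, stood at 500 ± 18.7 TPM (SD, n = 4), *Dlx2* at 126 ± 8.9 TPM and *Gad1*, an enzyme of GABA synthesis, at 86.6 ± 10.7 TPM. The ganglionic eminence part of the label was thus represented by its markers, which say nothing about the bulb part. The 18 genes summed to 1420 to 1500 TPM per library, the 9 excitatory members to 702 to 855 TPM and the 19 further pallial genes to 983 to 1130 TPM, and such sums depend on how many genes a list holds. In bulk RNA fewer cells of a type and less RNA per cell cannot be told apart, so none of these values is a share of cells.

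Within each library, excitatory genes were set against inhibitory counterparts of the same step of the lineage, as log2 ratios of TPM. These are ratios of RNA and rest on the genes chosen. The vesicular transporters *Slc17a6* and *Slc17a7* together came to 52.8, 54.5, 57.4 and 57.9 TPM in WT 1, WT 3, KO 2 and KO 7, against 41.5, 44.3, 46.2 and 42.4 TPM of *Slc32a1*, the transporter that loads GABA. The log2 ratio was 0.35 ± 0.067 (SD, n = 4), or 1.28-fold, and above 0 in all 4 libraries.

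*Neurod2* and *Neurod6* together exceeded *Gad1* and *Gad2*, the enzymes of GABA synthesis, by 1.28 ± 0.25 on the log2 scale (SD, n = 4). The libraries held 2.82, 2.46, 1.9 and 2.61 times as much in the order WT 1, WT 3, KO 2 and KO 7, so KO 2 was lowest. *Tbr1* was 1.91-fold above *Dlx5*, a homeobox factor of differentiating GABAergic neurons, with a log2 ratio of 0.94 ± 0.087 (SD, n = 4) and a range from 0.82 to 1.03. As CPM, a share of reads that ignores gene length, the log2 ratio of *Neurod2* and *Neurod6* to the Gad genes was 0.49 and that of *Tbr1* to *Dlx5* was 2.51.

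At the progenitor step *Emx1* was at 1.57, 1.35, 1.34 and 2.05 times the level of *Gsx2*, a homeobox factor of ventral progenitors, in WT 1, WT 3, KO 2 and KO 7. The log2 ratio was 0.64 ± 0.29 (SD, n = 4), above 0 in all 4 libraries and highest in KO 7. *Gsx2* itself ranged from 17 to 21.6 TPM and *Emx1* from 22.9 to 44.1 TPM.

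**Figure D2:**
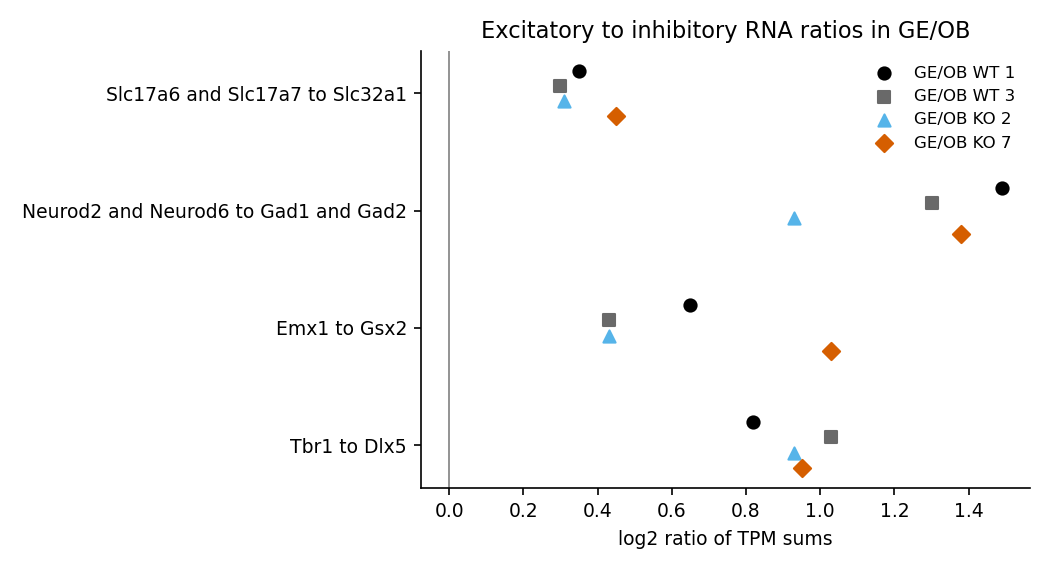
Log2 ratios of TPM sums within each GE/OB library for 4 pairs of excitatory and inhibitory genes, with 1 symbol per library and a line at equal levels. All 4 ratios lie above 0 in each library, *Emx1* to *Gsx2* runs from 0.43 to 1.03, and the *Tbr1* to *Dlx5* and transporter ratios vary least.

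The spread between GE/OB libraries was described on CPM scaled by trimmed mean of M-values (TMM) factors, as the log2 distance from the lowest to the highest of the 4 libraries, with 0.5 CPM added. Over 9822 genes with a mean of at least 10 CPM in GE/OB the median distance was 0.18. It was 1.16 for *Neurog2*, or 2.24-fold, and 0.244% of these genes were wider. *Emx1* spanned 0.9, or 1.87-fold, and 0.57% of the genes were wider. *Neurod6* spanned 0.5 and had 5.89% of genes wider. The other 6 members stayed under 0.3, from 0.1 for *Neurod1* and 0.11 for *Tbr1* to 0.27 for *Emx2*.

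The wide spread of *Neurog2* and *Emx1* lay within the KO pair. The WT embryos differed by 0.06 for *Neurog2* and 0.13 for *Emx1* on this log2 scale, and the KO embryos by 1.16 and 0.9. For both genes KO 7 was highest and KO 2 lowest, an order that 9.49% of the 9822 genes had. Further genes of dividing pallial cells had the same order. *Eomes* was at 66.63, 59.42, 50.66 and 88.76 TPM in WT 1, WT 3, KO 2 and KO 7. *Neurog1*, the close relative of *Neurog2*, was at 3.95, 4.04, 2.31 and 7.58 TPM, and *Nhlh1*, a bHLH factor of newborn neurons, at 15.03, 12.66, 8.63 and 20.96 TPM. All 3 were lowest in KO 2 and highest in KO 7.

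Of the 13 genes above the same level in the list of further pallial genes, 4 had this order and 0 the opposite one. *Eomes* and *Nhlh1*, given above, are among these 4. Of 8 radial glia genes, a list of stem cell markers of the embryonic brain, 4 had the order of *Neurog2* (among them *Nes* and *Sox2*). *Fabp7*, the highest gene of that list, did not, with its highest value in WT 3 and its lowest in KO 7. *Slc1a3* did not either, and was highest in KO 2 and lowest in WT 1. The order of *Neurog2* was found for 0 of 9 pan-neuronal genes. Among 9 pan-neuronal genes, 6 had the opposite order, highest in KO 2 and lowest in KO 7, which 19.5% of all genes had. *Dcx*, a microtubule protein of young neurons, was one of these. *Otp*, a homeobox factor of the hypothalamus, was at 11.71 TPM in KO 2 and at 3.04 to 4.88 TPM in the other 3 libraries. *Sim1*, of the same list, was at 1.64 TPM in KO 2 and at 0.54 to 0.58 TPM elsewhere. Other genes of that list did not single out KO 2. *Lhx9*, its highest, was at 15.1, 18.05, 19.25 and 20.65 TPM in WT 1, WT 3, KO 2 and KO 7. *Tcf7l2* was at 10.68, 7.39, 10.67 and 9.62 TPM. Of 17 ganglionic eminence genes 1 had the order of *Neurog2* and 3 the opposite. The part of dissection, stage and depth in these orders was not tested.

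KO and WT were compared in GE/OB with edgeR's quasi-likelihood test on the counts, over all genes, with Benjamini-Hochberg adjustment. Of the 9 members 0 were called at an adjusted p under 0.05, where 0.063% of all 17459 tested genes were called, and 1 member had an unadjusted p under 0.05, where 3.01% of all tested genes did. DESeq2 also called 0. *Neurod6* had the largest difference, a log2 fold change of -0.32 (SE 0.0998, unadjusted p = 0.00762 and adjusted p = 1 in edgeR). Without KO 2 the estimate for *Neurod6* was -0.19 and without KO 7 it was -0.46.

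The intervals come from the fit of all 16 libraries, with 2 embryos a group in GE/OB. Their spread is pooled with that of kidney and mESC, so they do not measure the spread between GE/OB embryos alone. For *Tbr1* the log2 fold change was 0.06, with a 95% interval from -0.13 to 0.25, for *Neurod1* it was 0.02 (-0.22 to 0.26), and for *Neurod2* -0.11 (-0.4 to 0.17). The transporters had 0.2 for *Slc17a6* (-0.08 to 0.48) and -0.09 for *Slc17a7* (-0.45 to 0.27). The progenitor genes had wider intervals, from -0.53 to 0.56 around 0.01 for *Neurog2* and from -0.32 to 0.7 around 0.19 for *Emx1*. *Emx2* had 0.16 (-0.19 to 0.5). For *Neurog2* the direction rested on single libraries, at -0.68 without KO 7 and 0.49 without KO 2, and for *Emx1* at -0.34 and 0.59. With sex as a covariate, whose effect then comes from kidney, the estimates of *Tbr1*, *Neurod6*, *Neurog2* and *Slc17a7* changed sign, and that of *Neurod2* went to -3.31 (adjusted p = 1 in edgeR). In kidney these genes had 29, 5, 1, 106 and 8 counts in all, in that order. A sex effect fitted on so few counts cannot be read as an adjustment of the GE/OB estimates.

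On TMM-scaled CPM the KO pair lay above the WT pair for *Tbr1*, *Slc17a6* and *Emx2*, 3 of 9 members where 15.6% of all tested genes did, and below it for *Neurod2* and *Neurod6*, 2 of 9 where 11.8% did. In TPM the *Neurod2* values overlapped. Of the 19 further pallial genes 0 were called in either direction, and their median log2 fold change was 0.05, beside 0.02 for the members and 0.02 for all tested genes. Of the 18 ganglionic eminence genes 0 were called, with a median of -0.03, of the 9 pan-neuronal genes 0, with a median of 0.03, and of the 9 radial glia genes 0, with a median of 0.1. Cajal-Retzius genes (6, median 0.32), bulb projection neuron genes (6, median 0.25) and thalamus and hypothalamus genes (8, median 0.19) had 0 calls as well, and 3 of the 8 had an unadjusted p under 0.05, beside the 3.01% of all tested genes. *Otp* and *Sim1*, of those 8, were high in KO 2 alone. The bulb list shares *Reln* and *Lhx5* with the Cajal-Retzius list and *Barhl2* with the thalamus and hypothalamus list, so these medians are not independent.

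**Figure D3:**
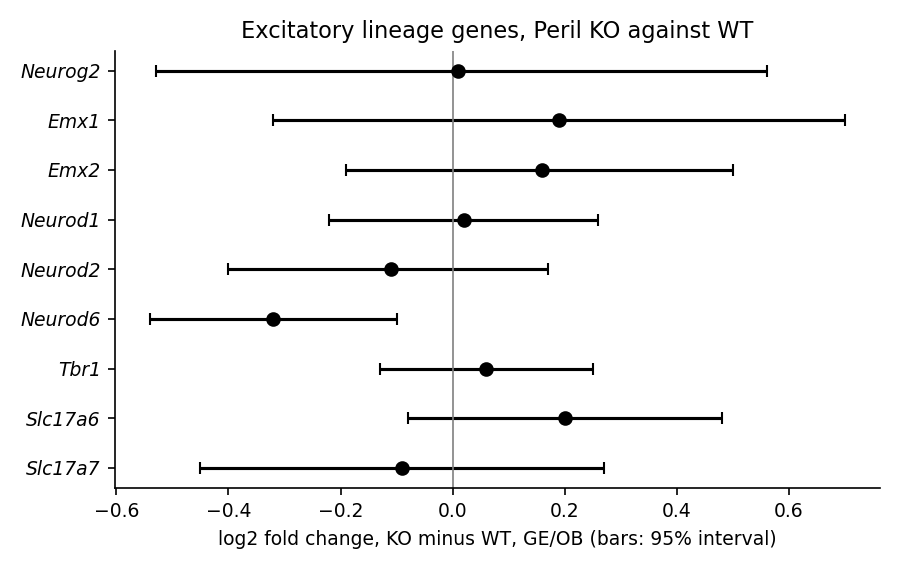
Log2 fold change of KO against WT in GE/OB for the 9 genes from edgeR, with points for the estimates and bars for 95% intervals from the fit of all 16 libraries. All intervals except that of *Neurod6* (-0.54 to -0.1) include 0, and those of *Neurog2* and *Emx1* are the widest.

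Outside the brain the members fell into 3 kinds. GE/OB was called higher than kidney for 8 of 9 members, where 41.0% of all tested genes were, and higher than mESC for all 9, where 46.1% were. All 9 are high in GE/OB, and with GE/OB left out of the fit only 4 passed the filter, so these counts do not stand as support. With sex as a covariate the count against mESC was 8.

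*Neurog2*, *Neurod1*, *Neurod2*, *Neurod6* and *Slc17a6* were each under 10 counts in the 6 kidney libraries together. *Neurog2* had 1 count in kidney, which put GE/OB at 12100-fold with a counting interval from 2170 to 477000, and *Neurod1* had 2 counts, at 4700-fold (1300 to 38800). Counting intervals and limits cover counting error only. *Neurod6* had 5 counts in all, 3 of them in WT 1, and *Neurod2* had 8, of which 6 were in WT 3. Those 2 libraries did not share their counts, since *Neurod6* was at 0 counts in WT 3 and *Neurod2* at 0 in WT 1. *Slc17a6* had 4 counts. Kidney WT 3 was also the library with the most RNA of *Sox10*, the neural crest factor, at 3.86 TPM. *Tbr1* had 1 to 12 counts in every kidney library, 29 in all, against 27023 in GE/OB.

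In mESC, *Neurod2*, *Neurod6*, *Slc17a6* and *Emx2* had 0 counts in all 6 libraries. At the 3 counts over the 6 libraries that a count of 0 allows, GE/OB was at least 17567-fold higher for *Neurod6*, at least 10537-fold for *Neurod2*, at least 4207-fold for *Slc17a6* and at least 1684-fold for *Emx2*, on the CPM scale. *Neurog2* had 2 counts and *Tbr1* 8. *Slc17a7* was present at low level in both tissues, from 0.12 to 0.34 TPM in kidney and from 0.24 to 0.48 TPM in mESC, and so was *Emx1*, from 0.35 to 0.77 TPM in kidney and from 0.08 to 0.25 TPM in mESC. *Emx1* was higher in kidney than in mESC (log2 fold change 2.06, SE 0.351, adjusted p = 3.55e-05 in edgeR), and its ranges did not overlap. *Slc17a7* was lower in kidney (-0.69, SE 0.2, adjusted p = 0.00411 in edgeR), with overlapping ranges, and the call was lost with KO libraries alone (-0.3, adjusted p = 0.286 in edgeR) and with sex as a covariate (-0.41, adjusted p = 0.123). In the comparison of kidney with mESC 6 of 9 members were called, 4 higher and 2 lower in kidney, where 46.3% and 42.0% of all genes were. With GE/OB left out of the fit only 4 members passed the filter, *Emx1*, *Emx2*, *Neurod1* and *Slc17a7*. In that fit 2 were called higher and 2 lower in kidney, where 7912 and 7042 of 16463 genes were. The 6 of 9 is therefore no result about the other members. The call of *Tbr1* rested on 29 counts against 8, and that of *Slc17a6* on 4 counts against 0.

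**Figure D4:**
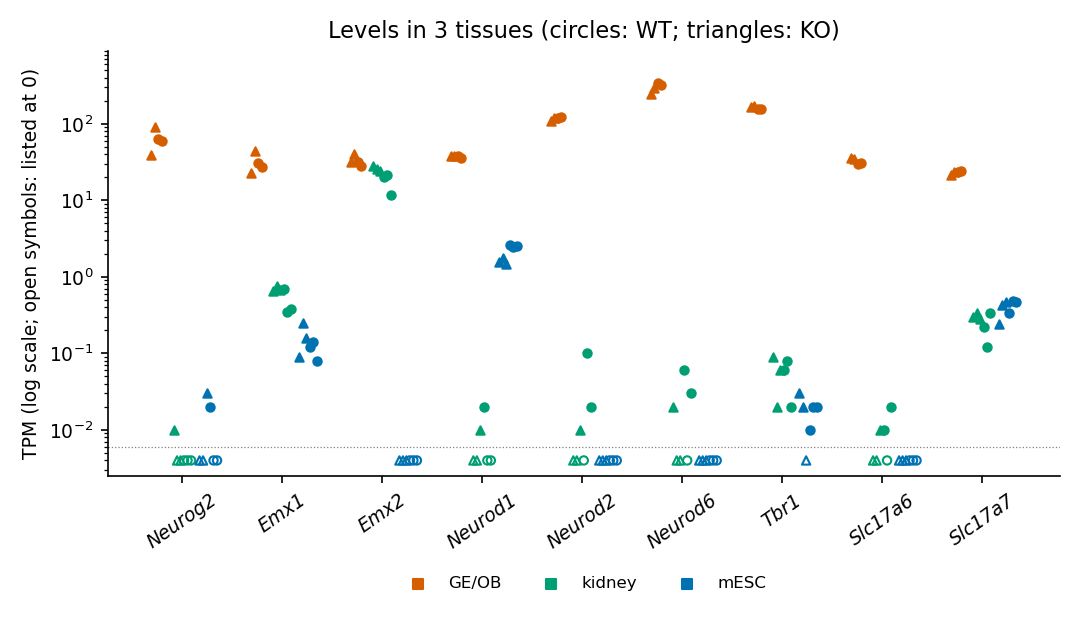
TPM of the 9 genes (log axis) in the 16 libraries, by tissue in colour, with circles for WT, triangles for KO and open symbols below the dotted line for values listed at 0. *Emx2* is the only one of the 9 near its GE/OB level in kidney, at 11.74 to 28.36 TPM, and *Neurod1* the only one above 1 TPM in mESC.

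*Emx2* is required for the urogenital system as well as for the cortex, and in the kidney its RNA is known from the ureteric bud, the epithelium that branches into the collecting system. In kidney it had 19.88, 21.68 and 11.74 TPM in WT 1, WT 3 and WT 8, and 25.65, 23.88 and 28.36 TPM in KO 7, KO 9 and KO 10. The lowest library was WT 8, and all KO values lay above all WT values. Against GE/OB (28.48 to 40.58 TPM) the direction depended on the scale. By TPM GE/OB was higher and the ranges just missed each other, while on counts the log2 fold change was -0.12 (SE 0.102, adjusted p = 0.298 in edgeR). It was 0.01 in DESeq2 with length offsets and 0.04 with WT libraries alone. With KO libraries alone it was -0.29 (adjusted p = 0.0337), and without kidney WT 8 it was -0.19 (adjusted p = 0.0398), both past the threshold.

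The kidney was otherwise marked by *Cited1* (117 ± 14 TPM; SD, n = 6) and *Six2* (106 ± 9.27 TPM), factors of nephron progenitors. Among 9 ureteric bud genes, *Krt8* (52.6 ± 13.4 TPM; SD, n = 6), *Calb1* (49.2 ± 8.17 TPM), *Cdh16* (33.1 ± 11.5 TPM) and *Wnt11* (30.2 ± 6.36 TPM) were highest. GE/OB was called lower than kidney for all 9 of them, where 43.7% of all genes were. Their 9 TPM values summed to 157 to 213 in WT kidneys and to 182 to 257 in KO kidneys.

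Between KO and WT kidney only *Emx1*, *Emx2* and *Slc17a7* had enough counts to be tested in a fit of the kidneys alone, where 0 of the 3 were called beside 0.065% of all genes. In the fit of all tissues 0 of the 9 members were called (0.223% of all tested genes), and DESeq2 called 0 as well. The other 6, at 1 to 29 counts in kidney, had passed the filter through other tissues, so this count is no result about them. An unadjusted p under 0.05 was found for 2 members, where 7.6% of all tested genes had one. *Emx2* was one, at a log2 fold change of 0.46 (SE 0.127, 95% interval 0.18 to 0.74, unadjusted p = 0.00344 and adjusted p = 0.339 in edgeR), and without WT 8 the value was 0.32. Of all tested genes 4.86% had all KO kidneys above all WT kidneys. Of the 9 ureteric bud genes 0 were called and 3 had an unadjusted p under 0.05 (7.6% of all genes), with a median log2 fold change of 0.33 beside 0 for all genes, and the part of the amount of ureteric bud in the *Emx2* values was not tested. The other member was *Neurod2*, with 7 counts in WT and 1 in KO, too few to read. *Emx1* (0.4, interval -0.35 to 1.14) and *Slc17a7* (0.4, -0.23 to 1.03) rested on 113 and 106 counts in all. The difference between the KO effects on *Emx2* in GE/OB and kidney was -0.3 (SE 0.203, adjusted p = 1 in edgeR).

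*Emx2* shares 264 exon bases at its 5′ end, 8.79% of its exon bases in the GENCODE vM21 annotation, with the antisense RNA *Emx2os* on the other strand. The library kit does not mark strand, so reads in the shared stretch cannot be told apart. *Emx2os* was at 1.53 to 2.12 TPM in GE/OB, 1.14 to 1.87 TPM in kidney and at most 0.02 TPM in mESC, far below *Emx2* in the first 2 tissues.

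*Neurod1* was the only member above 1 TPM in stem cells, and the one with a KO call there. WT mESC had 2.61, 2.46 and 2.51 TPM and KO mESC 1.55, 1.78 and 1.49 TPM, from 437.92 and 206.88 expected counts in all. All KO wells lay below all WT wells. The log2 fold change was -0.73 (SE 0.124, 95% interval -1 to -0.47, adjusted p = 0.00158 in edgeR), or 0.601-fold. In this fit of all tissues 6.86% of tested genes were called and 4.59% were called lower. *Neurod1* and *Slc17a7* were the only members with enough counts to be tested in a fit of mESC alone, where *Neurod1* was called and 25.2% of all genes were. All KO wells lay below all WT wells for 21.4% of tested genes. Leaving out single wells kept the call, with values from -0.79 to -0.67. *Slc17a7*, the other member with more than a few counts, was not called (-0.3, interval -0.87 to 0.26).

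The stem cells were marked by *Pou5f1* (1400 ± 21.1 TPM; SD, n = 6), the core factor of pluripotency. *Dcx* was at most 0.02 TPM there. *Tubb3*, a neuronal tubulin, and *Stmn2* were at 97.27 to 109.77 TPM and 258.94 to 290.61 TPM. The 9 pan-neuronal genes summed to 364 to 381 TPM in WT wells and 395 to 408 TPM in KO wells. Of the 9, 1 was called, *Map2*, higher in KO, where 6.86% of all tested genes were called in either direction. A list of 10 fibroblast genes, added after values were seen because the cells grew on feeders, summed to 4.4 to 5.27 TPM in WT and 2.21 to 2.97 TPM in KO. Of these, 3 of 10 were called lower in KO (*Col3a1*, *Lox* and *Thbs1*), where 4.59% of all tested genes were. In mESC they were low, at 0.05 to 0.5, 0.02 to 0.41 and 0.2 to 0.77 TPM. The filter was shared with kidney, where they were at 274.72 to 455.3, 15.58 to 24.96 and 12.67 to 16.29 TPM, so this count is weak. Whether this RNA came from feeder cells, and their part in the *Neurod1* values, was not tested. *Neurod1* shares 201 exon bases, 7.37% of its own, with *Cerkl* on the same strand. *Cerkl* was at 1.8 to 2.95 TPM in WT and 3.24 to 5.51 TPM in KO mESC, opposite to *Neurod1*, and the split of shared reads between the pair is the quantifier's estimate.

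The KO effect on *Neurod1* was 0.02 in GE/OB, and the difference from the effect in mESC was 0.76 on the log2 scale (SE 0.168, adjusted p = 0.0392 in edgeR), where 1.08% of all genes were called. It was the 1 member called in that difference. *Neurod2*, *Neurod6*, *Slc17a6* and *Emx2* had 0 counts in mESC, so that count is no result about them. In the difference between GE/OB and kidney 0 of 9 were called, where 0.0344% of all genes were, and DESeq2 called 0 as well. An unadjusted p under 0.05 was found for 1 member, *Neurod2*, at 8 counts in kidney, where 4.23% of all genes had one. Apart from *Emx1*, *Emx2* and *Slc17a7* the members had 1 to 29 counts in kidney, so the 0 is no result about them. In the difference between kidney and mESC 0 were called as well, where 2.24% of all genes were (0 by DESeq2, and 0 members with an unadjusted p under 0.05, where 15.5% of genes had one). Only 4 members were tested in a fit of those 2 tissues alone, where 2.62% of genes were called, so the 0 is no result about the rest. Leaving out any 1 of the 10 libraries put the adjusted p between 0.0623 and 0.182, so the call rested on all of them, with values from 0.69 to 0.81. GE/OB was 11.8-fold higher than mESC for *Neurod1* (log2 fold change 3.56, SE 0.0823, adjusted p = 8.4e-17 in edgeR).

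**Figure D5:**
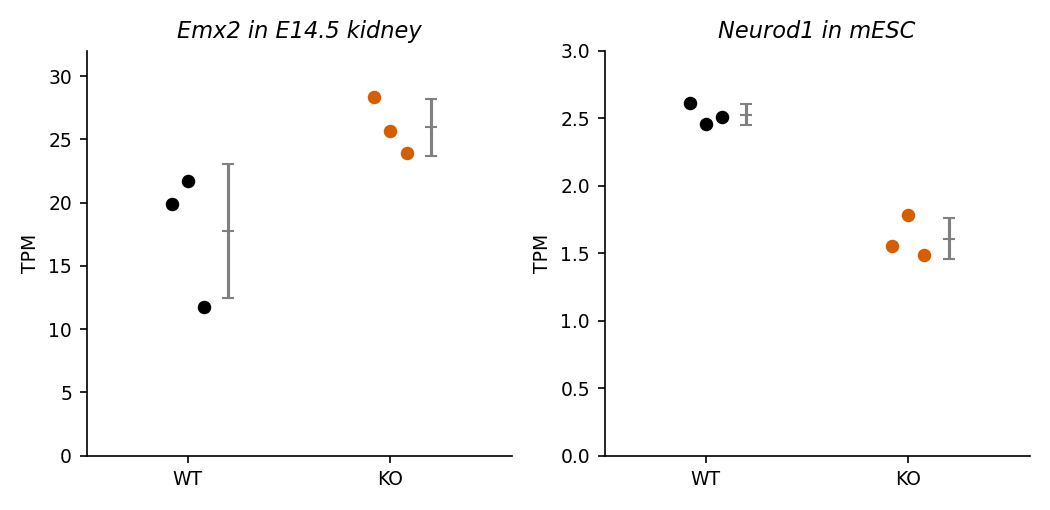
TPM of *Emx2* in E14.5 kidney (left) and of *Neurod1* in mESC (right), with points for libraries and grey bars for the mean and SD of 3 libraries per group, on axes from 0. The KO kidneys lie at 23.88 to 28.36 TPM above WT kidneys at 11.74 to 21.68 TPM, a difference that was not called, and KO wells at 1.49 to 1.78 TPM below WT wells at 2.46 to 2.61 TPM, which was called.

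For each member up to 3 genes with the most similar pattern over the 16 libraries were listed by Pearson's r of log2(TPM + 0.5), as a description. The libraries fall into 3 tissues, so a high r mostly marks genes that separate GE/OB from the rest, and 560 genes had an r above 0.99 with *Tbr1*. Closest to *Tbr1* were *Fbll1*, *Slc17a6* and *Neurod2* (r = 0.9997 to 0.9998), and closest to *Slc17a6* were *Fbll1*, *Tbr1* and *Scrt2*. *Neurod2* was close to *Scrt1* and *Scrt2* (r = 0.9998), and *Neurod6* to *3110039M20Rik*, *Sp9* and *Neurod2* (0.9997). *Sp9* is a factor of GABAergic precursors, so the measure did not separate excitatory from inhibitory genes.

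*Neurog2* was closest to *Nhlh1* (r = 0.999), *Gm20501* (0.9989) and *Nkx2-1* (0.9988), and *Slc17a7* to *Rbfox3* (0.9981), *Map1b* and *Gad2*. *Neurod1* was closest to *Uchl1* (0.9978), *Clasp2* and *Ina*. These 3 had RNA in mESC as well, at 102, 28.2 and 10.3 TPM on average. *Emx1* was closest to *Zswim5* (0.9978) and *Elovl2*. *Emx2* was closest to *Dach1* (0.9977), *Spsb4* and *Slc39a8*, all present in both GE/OB and kidney. *Dach1*, a factor of the eye, kidney and forebrain, averaged 21.7 TPM in GE/OB, 19.9 TPM in kidney and 0.0567 TPM in mESC.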

How the data were processed

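PolyA+ libraries were made by the authors with the TruSeq RNA v2 kit. Reads were aligned to mm10 with bowtie2 and quantified with RSEM by the authors, and each deposited file gives, per gene, an expected count, a TPM value and an effective length (other deposited files, of MPRA barcodes, hold counts and were not used; whole brain and Hi-C data were not analysed here). Expected counts split reads between genes and were rounded for fitting. The members and lists were chosen with earlier results of these data known, and the radial glia, feeder fibroblast and antisense lists after values were seen.

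The 16 libraries, of 17544707 to 45924887 counts, were fitted together (edgeR 4.0.16, R 4.3.3) with a mean for each of the 6 combinations of tissue and genotype. Scaling was by TMM and filtering by filterByExpr, which left 17459 genes for the quasi-likelihood test. The study's methods name DESeq, whose successor DESeq2 1.42.0 was an alternative. A gene was called at a Benjamini-Hochberg adjusted p under 0.05. An SE was obtained from the estimate and its F statistic, as their ratio after taking the root of F. The fit was tested on simulated data. Named were all members, up to 4 genes of each list with the highest TPM in the tissue of the list, any list gene called between KO and WT in GE/OB (there were 0), and the 3 genes most like each member, apart from a few genes, with 1 planned ratio, that are not reported here. Genes given beyond these were chosen after their values were seen. Nothing says that mESC wells were separate cultures beyond being wells of 1 clone. The p-values there rest on the spread between wells, pooled in the fit with that of the other libraries, and hold no spread between clones. Gene positions are from GENCODE vM21, and tables were made with Python 3.11.15 and pandas 2.3.3.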

Additional observations from a re-analysis of the deposited data

Results flagged for a closer look

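*Neurod2* in GE/OB KO 2 was at 107.21 TPM while the nearest of the other 3 libraries was at 119.84 TPM, and the ratio of that gap to the range was 0.888, above Dixon's critical value for 4 samples. This was 1 of 14 combinations of member and tissue examined, and chance flags about 1 in 20. The KO effect on *Neurod1* differed between GE/OB and mESC by 0.76 on the log2 scale (adjusted p = 0.0392 in edgeR). The difference was not called without any 1 of the libraries, or at a threshold of 0.01.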

How the results depend on the processing

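The counts of members called between KO and WT (0 in GE/OB, 0 in kidney and 1 in mESC) were the same under every alternative tried, and leaving out single libraries gave 0 to 0, 0 to 0 and 1 to 1. For kidney against mESC 6 members were called, 4 with GE/OB left out of the fit, and 3 with KO libraries only or with sex as a covariate. The single call between KO effects in GE/OB and mESC went to 0 with sex as a covariate, at an adjusted p under 0.01, and without any 1 library (0 to 0). Sex as a covariate takes its effect in GE/OB from kidney, and it turned the KO log2 fold changes in GE/OB of *Tbr1* to -0.77, *Neurod6* to 1.19, *Neurog2* to -1.02 and *Slc17a7* to 0.45, and moved *Neurod2* from -0.11 to -3.31, all at an adjusted p of 1. The genes named had 1 to 106 counts each in kidney, too few for these values to be read as an adjustment. Leaving out single libraries gave -0.03 to 0.08 for *Neurod1* in GE/OB, -0.68 to 0.49 for *Neurog2* (-0.01 without WT 3) and -0.34 to 0.59 for *Emx1*, with the lowest values of the last 2 without KO 7. *Emx2* in GE/OB against kidney turned to 0.01 in DESeq2 with length offsets and 0.04 with WT libraries. CPM in place of TPM, which drops gene length, moved the transporter ratio to 0.8, that of *Neurod2* and *Neurod6* to 0.49 and that of *Tbr1* to 2.51. The causes of the other moves were not tested. The numbers of the mESC wells did not pair them (correlations of same-numbered wells 0.00553, 0.016 and 0.0452). With the replicate block, *Neurod1* in mESC was -0.7 (adjusted p = 0.00037), 1 member was called as before, and no call changed. The few counts of most members in kidney and mESC limit what could be seen there.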
